A study of Homo sapiens with 6 samples.

Results

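The genes described here are 35 neuronal cytoskeleton and neurite growth genes, taken by symbol from a list of growth cone proteins, stathmins, doublecortins, collapsin response mediator proteins, microtubule-associated proteins, tubulins, neuronal intermediate filaments, neuronal ELAVL proteins and kinesin-1 heavy chains. All 35 were found among the 19923 protein-coding genes of the count tables, and 34 passed the filter on low counts. Poly(A) RNA was sequenced from Kelly, a human neuroblastoma cell line given in the labels as MYCN-amplified and of WT genotype. Cells were transfected with lipofectamine RNAiMax and either a control siRNA (siControl, 3 libraries) or an siRNA against METTL3 (siMETTL3, 3 libraries) and collected after 72 hours. The labels give the siRNA amount as 20 μM. METTL3 is the methyltransferase that places N6-methyladenosine (m6A) on mRNA. The study is thus 1 cell line and 1 comparison, siMETTL3 against siControl, and it addresses what METTL3 depletion does to neuroblastoma cells. Whether 1 siRNA duplex or a pool was used is not given in the sources used here, nor whether the libraries came from separate cultures. The p-values therefore set the group difference only against the spread between these libraries, estimated partly over all genes.

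Library totals ranged from 15430000 to 21565013 counts, and siControl replicate 3 was the shallowest and lay farthest out on the first principal component (-37.0, against -17.9 and -24.4 for the other siControl libraries and 25.5 to 27.4 for siMETTL3). METTL3 itself went from 54.2 ± 1.80 to 33.04 ± 1.27 CPM (SD, n = 3), so that 61.0% of the control level remained (log2 fold change -0.71, edgeR FDR 4.68e-06). Counts covered the whole gene span with its introns, and 7.9% of the METTL3 span is shared with TOX4. The share of mature METTL3 mRNA left was therefore not measured. CPM here is the count divided by the TMM-scaled library total in units of 1e+06 counts, FDR is the p-value of edgeR's quasi-likelihood test adjusted by the Benjamini-Hochberg method over all 15311 tested genes, and a gene is called higher or lower at an FDR under 0.05. All 8 noradrenergic neuroblastoma markers were expressed (summed 4964 to 5484 CPM in siControl and 7417 to 7843 CPM in siMETTL3, with 5 higher and ISL1 lower). The 10 mesenchymal-type markers summed to 255 to 282 CPM in siControl and 210.2 to 230.3 CPM in siMETTL3 (3 higher, 3 lower), the 7 Schwann and glial markers to 8.35 to 9.01 and 12.3 to 12.4 CPM, and the 6 blood cell markers to under 1 CPM in every library. No marker was at 0 in all libraries, and the part of these cell types in the results was not tested. In bulk RNA, fewer cells of a type and less RNA per cell cannot be told apart.

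A neurite is built around bundled microtubules, polymers of alpha- and beta-tubulin, which microtubule-associated proteins stabilise and stathmins take apart. Doublecortin and the collapsin response mediator proteins act on microtubules in migrating neurons and growth cones, GAP43 and BASP1 are membrane-bound proteins of the growth cone, and neurofilaments set axon calibre. Neuroblastoma cells of the sympathetic lineage carry many of these genes, and neurite outgrowth is a usual sign of their differentiation.

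METTL3 and its partners favour adenosines in a short sequence context of which GGACU is a common form. The shortest way to see where that context lies in these transcripts is the GGACT match nearest to the stop codon of each canonical transcript (GENCODE release 44, GRCh38), shown here for 10 members whose calls held in all alternatives, with the motif in capitals and 10 bases on each side.
STMN1: agctaatgtaGGACTgtataggtag
STMN3: ggcttttgtgGGACTcagaaaggga
DCX: tggatgactcGGACTcgcttggtga
DPYSL3: caactactccGGACTacatcaactc
TUBB3: tgggcgactcGGACTtgcagctgga
NEFH: gtggggccggGGACTggccactgaa
MAP4: cttggagcgtGGACTggttggtttt
MAP6: agtaccagaaGGACTtccgcgcctg
MAPT: ctttggctcgGGACTtcaaaatcag
ELAVL3: ggctatcaaaGGACTgaatgggcag
These windows lie at chr1:25900889-25900913 (minus strand, STMN1), chr20:63639859-63639883 (minus, STMN3), chrX:111301697-111301721 (minus, DCX), chr5:147401552-147401576 (minus, DPYSL3), chr16:89932623-89932647 (plus, TUBB3), chr22:29491186-29491210 (plus, NEFH), chr3:47852013-47852037 (minus, MAP4), chr11:75667882-75667906 (minus, MAP6), chr17:46024325-46024349 (plus, MAPT) and chr19:11458207-11458231 (minus, ELAVL3). The DCX match is in the coding sequence, with its adenosine 20 bases before the stop codon, and those of STMN1 and MAPT are in the 3′ UTR, 117 and 168 bases after the first base of the stop codon. The other matches lie farther from that base. Those of NEFH, MAP4 and STMN3 are in the 3′ UTR, at 497, 911 and 1469. Those of ELAVL3, DPYSL3, TUBB3 and MAP6 are in the coding sequence, at -547, -767, -1229 and -1964. GAP43, the member with the largest change, has no GGACT in its canonical transcript. A match says only that these letters are present; methylation was not measured in these tables.

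Of the 34 tested genes, 21 were called, where 37.8% of all tested genes were. In siMETTL3 8 were higher (23.5%) and 13 were lower (38.2%), where 18.6% of all tested genes were called higher and 19.2% lower. The libraries of the groups did not overlap for 24 of the 34 genes, 10 higher and 14 lower, against 49.9% of all tested genes (24.8% higher and 25.1% lower). Most changes were modest. The median absolute log2 fold change was 0.21 both for the members and for all tested genes, and 4 members were called with at least a 1.5-fold change: GAP43 upward and DCX, DPYSL3 and STMN1 downward. Of all tested genes, 9.72% were called with a change of that size.

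**Figure D1:**
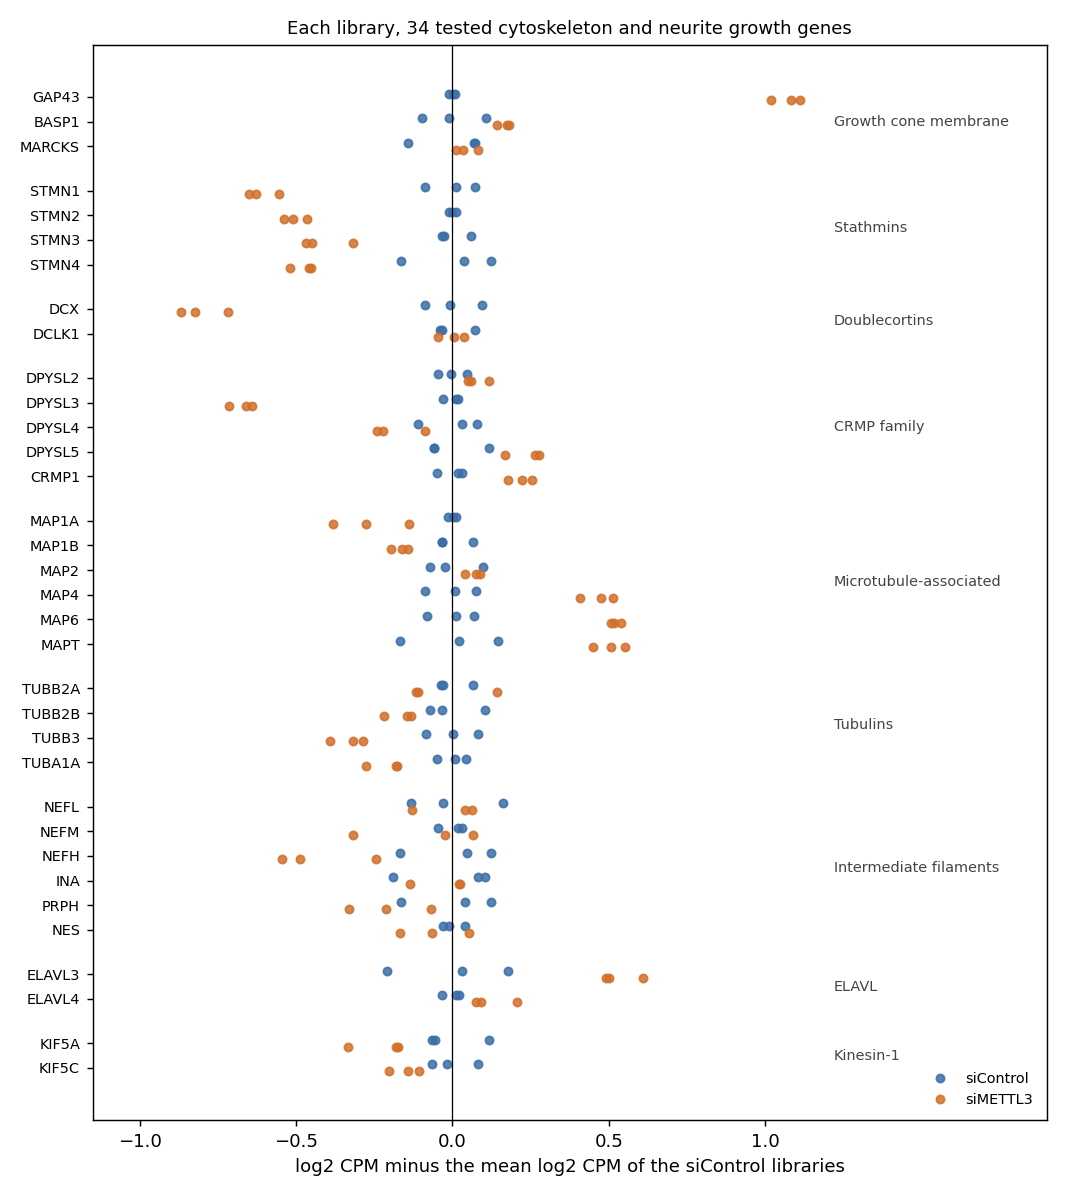
Each point is 1 library; the x axis gives log2 CPM less the mean of the siControl libraries for that gene, and genes are grouped by family. All siMETTL3 points of the 4 stathmins lie to the left of the siControl points, while those of GAP43, MAP4, MAP6, MAPT and ELAVL3 lie to the right.

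The genes of the growth cone membrane proteins were higher or did not pass the test. GAP43 (chromosome 3, 115623324 to 115721490, plus strand), a protein kinase C substrate that is a classical marker of growing axons, was measured at 126, 124 and 125 CPM in the siControl libraries and at 253, 265 and 269.7 CPM in the siMETTL3 libraries. The siControl libraries were nearly level and every siMETTL3 library lay far above them. GAP43 rose by 1.07 on the log2 scale with an SE of 0.0541 (edgeR FDR 1.28e-08), a larger absolute change than that of 96.9% of all tested genes. BASP1, a related protein of the inner membrane, was at 148, 139 and 161 CPM in siControl and at 165, 168 and 169 CPM in siMETTL3. The groups did not overlap but lay close together, and the call was marginal (log2 fold change 0.17, edgeR FDR 0.0461). Leaving out any library other than siControl replicate 3 ended the BASP1 call (FDR 0.0571 to 0.222, highest without siControl replicate 2), as did DESeq2 (FDR 0.0589). MARCKS, which binds actin and membrane phospholipids, was at 230.5 ± 19.1 and 237 ± 6.05 CPM, with overlapping groups and a log2 fold change of 0.04 ± 0.0646 (SE; edgeR FDR 0.670).

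All 4 stathmins fell. STMN1 (chromosome 1, 25884181 to 25906991, minus strand), the founding member, which sequesters tubulin dimers and is also abundant in dividing cells, was at 439.9, 471 and 492 CPM in siControl and at 298, 302 and 318 CPM in siMETTL3. STMN2 (chromosome 8, 79610814 to 79666175), the neuronal growth cone form, was at 274, 269 and 271 CPM against 187, 190.5 and 197 CPM. In both genes the highest siMETTL3 library lay well under the lowest siControl library. STMN1 dropped to 65.5% of the control level (log2 fold change -0.61, SE 0.0596, edgeR FDR 4.64e-06) and STMN2 to 70.5% (log2 fold change -0.50, SE 0.0527, edgeR FDR 8.36e-06). STMN3, another neuronal member, was at 252, 236 and 237 CPM in siControl and at 177, 194 and 175 CPM in siMETTL3 (log2 fold change -0.41, edgeR FDR 0.000127). STMN4, the member with the fewest counts, was at 14.2, 15.1 and 12.3 CPM against 10.1, 10.1 and 9.64 CPM (log2 fold change -0.49, edgeR FDR 0.00468). Neither gene's groups overlapped. Summed over the family, the stathmins went from 994.5 ± 16.7 to 689 ± 15.0 CPM (SD, n = 3). All 4 were called lower in each of the 19 alternatives run, with log2 fold changes from -0.65 to -0.38.

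The 2 doublecortin family members behaved unlike each other. DCX (chromosome X, 111293779 to 111412429, minus strand), which binds and stabilises microtubules in migrating neuroblasts, was at 83.4, 88.2 and 94.8 CPM in siControl and at 48.6, 50.1 and 53.9 CPM in siMETTL3. DCLK1, its relative with an added kinase domain, was at 93.9, 94.2 and 102 CPM against 93.5, 96.7 and 98.99 CPM. The DCX groups were far apart and the DCLK1 groups overlapped. DCX fell by 0.80 on the log2 scale (SE 0.0687, edgeR FDR 1.56e-06), to 57.4% of the control level. For DCLK1 the fold change was close to 0, with an SE of 0.0590 (edgeR FDR 0.995). The log2 ratio of DCX to DCLK1 counts was -0.17, -0.095 and -0.099 in siControl and -0.94, -0.95 and -0.88 in siMETTL3, with no overlap; the ratio was not tested, and the pair was picked after its values were seen.

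**Figure D2:**
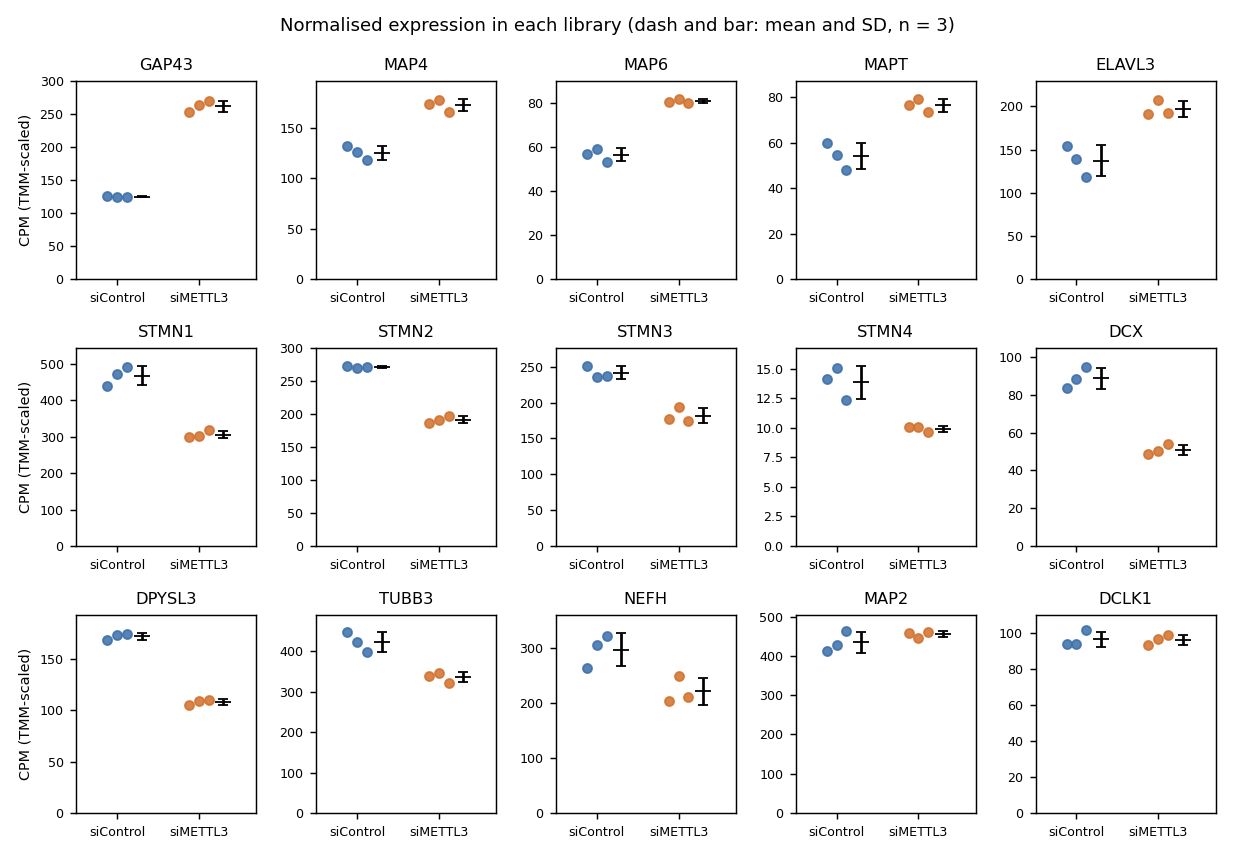
CPM in each library for 15 members, with the mean and SD of each group of 3 (dash and bar) beside the points. The 5 genes of the top row are higher in siMETTL3, the next 8 are lower, and MAP2 and DCLK1 overlap between groups.

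Within the genes of the collapsin response mediator proteins, which link semaphorin signals to the cytoskeleton, 1 member fell and 2 rose. DPYSL3 (CRMP4; chromosome 5, 147390808 to 147510068, minus strand) was at 168, 173 and 174 CPM in siControl and at 105, 109 and 110.3 CPM in siMETTL3. The groups were far apart and the libraries of each were close together. DPYSL3 fell by 0.67 on the log2 scale (SE 0.0541, edgeR FDR 8.75e-07). CRMP1 was at 175, 174 and 166 CPM against 194, 205 and 200.3 CPM (log2 fold change 0.22, edgeR FDR 0.00611), and DPYSL5 at 212, 188 and 188 CPM against 235, 237 and 219.5 CPM (log2 fold change 0.23, edgeR FDR 0.00971). Both genes were higher in each siMETTL3 library than in any siControl library, but by small steps. DPYSL2 (CRMP2), the family member with the most counts, was at 386 ± 12.5 and 406 ± 10.0 CPM (log2 fold change 0.08, edgeR FDR 0.301), and DPYSL4 at 61.3 ± 4.08 and 54.0 ± 3.18 CPM (log2 fold change -0.19, edgeR FDR 0.0549). The sum over the 5 genes was 986 ± 17.0 CPM in siControl and 999 ± 15.5 CPM in siMETTL3. The DPYSL5 call was lost without replicate 2 of siControl (FDR 0.0644) and without replicate 1 or 2 of siMETTL3 (FDR 0.0566 and 0.0581), DPYSL4 was called lower without siControl replicate 3 or siMETTL3 replicate 2 (FDR 0.00621 and 0.0445), and CRMP1 and DPYSL5 were not called when GC and length effects were offset (log2 fold changes 0.096 and 0.073). EVC overlaps 45.7% of the CRMP1 span and was itself called higher (log2 fold change 0.29, edgeR FDR 0.0120), and reads in the shared part were counted for both genes.

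Among the genes of the microtubule-associated proteins, 3 rose and 2 fell. MAPT (chromosome 17, 45894382 to 46028334), which encodes the axonal protein tau, was at 59.7, 54.8 and 48.0 CPM in siControl and at 76.7, 79.1 and 73.7 CPM in siMETTL3. MAP6, which protects microtubules from cold, was at 56.8, 59.2 and 53.3 CPM against 80.7, 81.9 and 80.2 CPM. MAP4, the form found in most cell types, was at 132, 126 and 118 CPM against 174, 178 and 166 CPM. None of these 3 genes had overlapping groups, and siControl replicate 3 was the lowest library for each. Their log2 fold changes were 0.49 (SE 0.0768, edgeR FDR 0.000234), 0.52 (SE 0.0621, edgeR FDR 2.66e-05) and 0.46 (SE 0.0599, edgeR FDR 4.96e-05). The genes of the large neuronal proteins MAP1A and MAP1B went the other way. MAP1A was at 65.0, 63.9 and 64.6 CPM in siControl and at 53.2, 58.6 and 49.5 CPM in siMETTL3 (log2 fold change -0.26, edgeR FDR 0.00993), and MAP1B at 743, 743 and 797 CPM against 664, 689 and 681 CPM (log2 fold change -0.17, edgeR FDR 0.0301). Both were lower in every siMETTL3 library. MAP2, the dendritic marker, was at 413, 427 and 464 CPM against 458, 447 and 462 CPM, with overlapping groups (log2 fold change 0.07, SE 0.0588, edgeR FDR 0.401). Because the rises and falls offset each other, the family sum was 1496 ± 42.4 CPM in siControl and 1517 ± 14.4 CPM in siMETTL3. MAP1A was not called without siMETTL3 replicate 3 (FDR 0.0603), and MAP1B was not called without siControl replicate 2 (FDR 0.0665) or without siMETTL3 replicate 1, 2 or 3 (FDR 0.144, 0.0784 and 0.0952), nor with upper quartile scaling (FDR 0.0552).

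The tubulin genes were lower or did not pass the test. TUBB3 (chromosome 16, 89921392 to 89938761), the neuronal beta-III tubulin, was at 448, 424 and 399 CPM in siControl and at 339, 347 and 322 CPM in siMETTL3. TUBA1A, the main alpha-tubulin of developing neurons, was at 460.2, 472 and 442 CPM against 405, 378 and 404 CPM. TUBB2B was at 116, 106 and 103 CPM against 98.7, 93.1 and 97.9 CPM. Every siMETTL3 library lay under every siControl library for these 3 genes, narrowly so for TUBB2B. TUBB3 fell by 0.33 on the log2 scale (SE 0.0600, edgeR FDR 0.000696), TUBA1A by 0.21 (edgeR FDR 0.00950) and TUBB2B by 0.17 (edgeR FDR 0.0474). TUBB2A overlapped between groups at 19.5 ± 0.781 and 19.1 ± 2.02 CPM (edgeR FDR 0.872). TUBB4A, a tubulin of oligodendrocytes and some neurons, was not tested: it had 4, 0 and 4 counts in siControl and 3, 0 and 2 in siMETTL3, where a count of 0 allows up to 0.150 CPM in siControl replicate 2 and 0.138 CPM in siMETTL3 replicate 2 (counting error only). Tubulin counts are uncertain between near-identical copies, since the coding sequences of TUBB2A and TUBB2B are 98.2% identical and those of TUBA1A and TUBA1B 97.2%. AC092143.1 shares 84.6% of the TUBB3 span, and reads in the shared part were counted for both genes. It was at 428 and 342 CPM, beside 423.5 and 336.2 CPM for TUBB3. Its call as lower (log2 fold change -0.32, edgeR FDR 0.000896) is therefore not separate from that of TUBB3. TUBB2B lost its call without any single library except siControl replicate 3 (FDR 0.0852 to 0.166, highest without siMETTL3 replicate 2) and in DESeq2 (FDR 0.0720), and TUBA1A lost it without siControl replicate 2 or siMETTL3 replicate 2 (FDR 0.0594 and 0.0654).

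Of the intermediate filament genes, only NEFH was called. NEFH (chromosome 22, 29480218 to 29491390), the heavy neurofilament subunit of mature axons, was at 263, 306 and 322 CPM in siControl and at 203, 249.7 and 211 CPM in siMETTL3. The groups did not overlap, but the spread within each was wide. NEFH fell by 0.42 on the log2 scale (SE 0.0884, edgeR FDR 0.00263). NEFL and NEFM, the light and medium subunits that assemble with it, were at 52.7 ± 5.49 and 52.3 ± 3.71 CPM and at 16.7 ± 0.471 and 15.8 ± 2.12 CPM (edgeR FDR 0.957 and 0.615). INA, which encodes alpha-internexin, was at 142 ± 15.6 and 138 ± 8.63 CPM (edgeR FDR 0.773). NES, the nestin gene of neural progenitors, was at 345 ± 9.03 and 332 ± 25.5 CPM (edgeR FDR 0.508). All 4 overlapped between groups, with an SE of the log2 fold change between 0.0629 and 0.112. PRPH, the peripherin gene of peripheral neurons, was at 95.2, 109.8 and 116 CPM against 92.1, 102 and 84.8 CPM and did not pass the test (log2 fold change -0.20, edgeR FDR 0.0690). It was called lower without siControl replicate 1 or siMETTL3 replicate 2 (FDR 0.00366 and 0.0403).

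The neuronal RNA-binding proteins ELAVL3 and ELAVL4 stabilise AU-rich mRNAs, GAP43 mRNA being a known target of ELAVL4. ELAVL3 (chromosome 19, 11451326 to 11481046, minus strand) was at 154, 139 and 118 CPM in siControl and at 192, 208 and 193 CPM in siMETTL3. ELAVL4 was at 159, 153 and 158 CPM against 167, 165 and 181 CPM. Both genes were higher in every siMETTL3 library, and the ELAVL4 groups lay close together. ELAVL3 rose by 0.52 on the log2 scale (SE 0.0832, edgeR FDR 0.000375), and ELAVL4 did not pass the test (log2 fold change 0.13, edgeR FDR 0.0974). AC008481.3 overlaps 49.8% of the ELAVL3 span on the same strand and was also called higher (log2 fold change 0.41, edgeR FDR 0.0344), and reads in the shared part were counted for both genes. The kinesin-1 heavy chains carry cargo along axonal microtubules. KIF5A was at 65.2, 57.5 and 57.9 CPM against 53.1, 53.3 and 47.7 CPM, and KIF5C at 177, 183 and 196 CPM against 161, 172 and 168 CPM. The groups did not overlap for either gene; KIF5A was called lower (log2 fold change -0.23, edgeR FDR 0.0239), and KIF5C missed the threshold (edgeR FDR 0.0572, log2 fold change -0.15). KIF5A was not called without replicate 1 of siControl (FDR 0.0799) or without replicate 1 or 3 of siMETTL3 (FDR 0.0548 and 0.121), and KIF5C was called without siControl replicate 1 (FDR 0.0195).

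**Figure D3:**
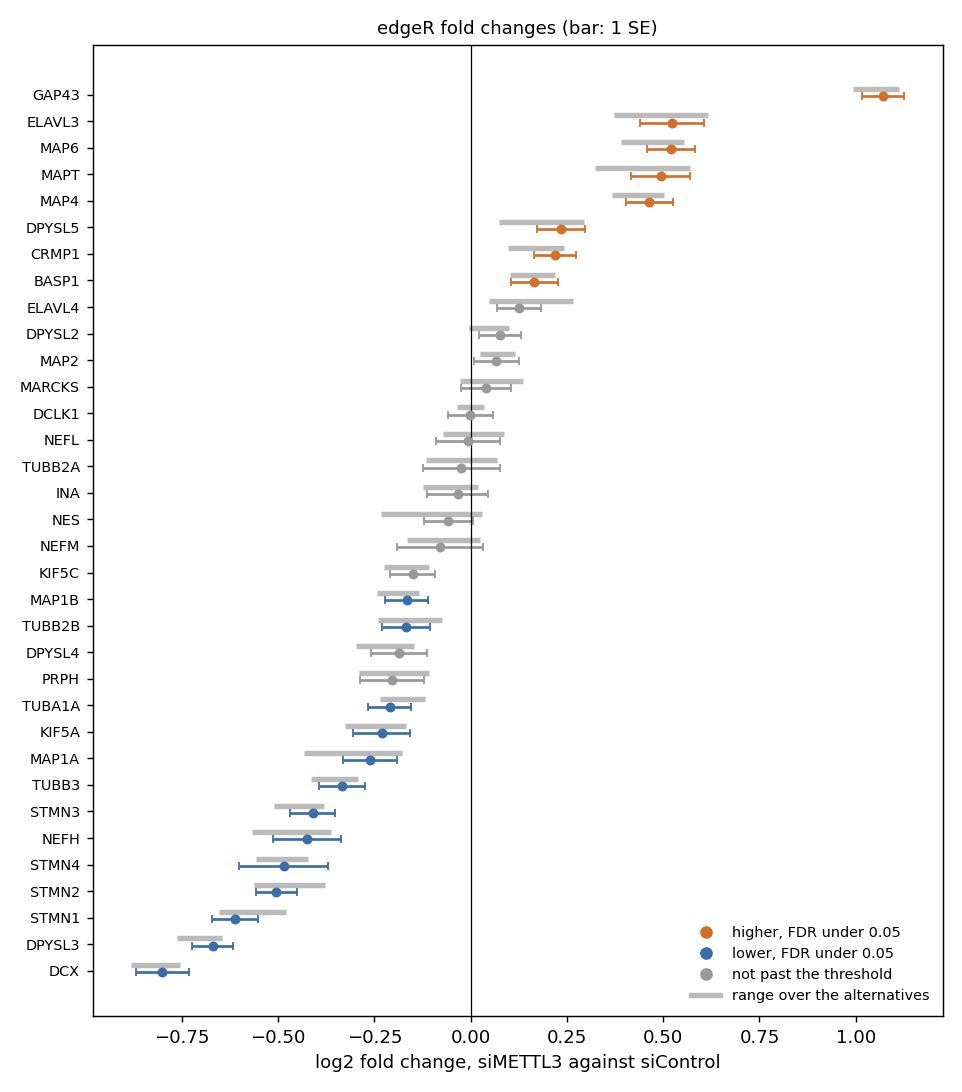
Log2 fold change of each of the 34 tested genes (point, with 1 SE as bar) in siMETTL3 against siControl, coloured by call, with a grey band for the lowest to highest value over the 19 alternatives. GAP43 stands apart at the top at 1.07, and DCX lies lowest at -0.80.

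Of the 21 called members, 13 kept their call and direction in every alternative that could be fitted for them. These were GAP43, MAP4, MAP6, MAPT and ELAVL3 among the higher genes and the 4 stathmins, DCX, DPYSL3, TUBB3 and NEFH among the lower ones. The 8 others (DPYSL5, CRMP1, BASP1, MAP1A, MAP1B, TUBB2B, TUBA1A and KIF5A) had absolute log2 fold changes of 0.26 or less. Without siControl replicate 3, the library that stood apart, 8 members were higher and 14 lower (23.5% and 41.2%), against 19.8% and 20.7% of all genes tested in that fit.

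Levels of different genes can be set side by side only per length, here as CPM per kilobase of the canonical transcript, with the limit that the counts also hold intron reads. On that scale STMN1 was highest in siControl at 324, followed by TUBA1A at 274, TUBB3 at 248, STMN2 at 143, STMN3 at 107.5 and GAP43 at 83.4. In siMETTL3 TUBA1A came first at 237, followed by STMN1 at 212, TUBB3 at 197 and GAP43 at 175, ahead of STMN2 at 100.5. The lowest tested members per kilobase were NEFM and STMN4, at 5.11 and 5.97 in siControl.

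The counts covered whole gene spans, introns included, and intron length went with the direction of change over all genes. Tested genes were ranked by intron length and split into 5 equal classes. In the class with the shortest introns (up to 6536 bases) 9.53% were higher and 28.3% lower, and the median log2 fold change was -0.13. In the class with the longest introns (89747 bases or more) 29.1% were higher and 15.7% lower, and the median was 0.067. The members followed the same slope in part. Among the 10 members in the shortest class (STMN1, MAP1A, TUBB2A, TUBB2B, TUBA1A, NEFL, NEFM, PRPH, NES and MARCKS) 0 were higher and 4 were lower, and among the 12 in the longest class 4 were higher and 3 were lower. The called higher members had a median intron length of 87672 bases and the called lower members one of 11465 bases, but DCX (109328 bases) and DPYSL3 (113769 bases) fell the most of all members with long introns. With an offset that removes this trend, the log2 fold changes were -0.54 for STMN1, -0.88 for DCX, 0.99 for GAP43 and 0.44 for MAP6, all still called, while TUBA1A (-0.12), TUBB2B (-0.073), MAP1A (-0.18), DPYSL5 (0.16) and BASP1 (0.10) were not.

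**Figure D4:**
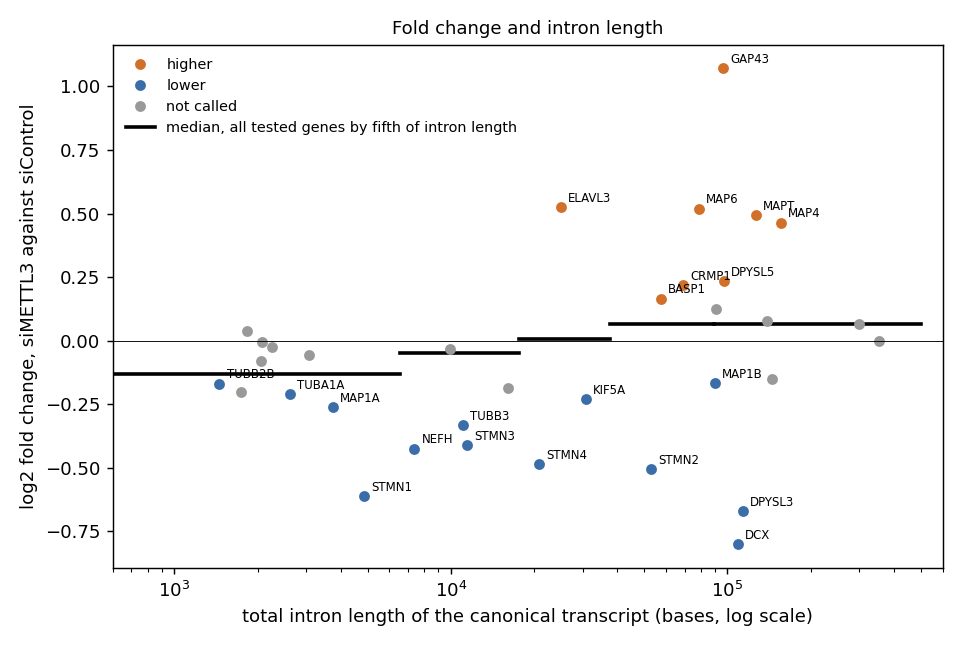
Log2 fold change of the 34 tested members against the total intron length of the canonical transcript (log axis), coloured by call, with the called genes named. Black lines give the median of all tested genes in each of the 5 classes of intron length, drawn within the plotted range, from -0.13 in the shortest to 0.067 in the longest.

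GGACT matches were counted in the members' transcripts beside those of all tested genes, with no test of the difference. The median was 3 matches per canonical transcript on the transcript strand for the members and 3 for all tested genes, or 0.688 and 0.929 per kilobase. Members without a match were GAP43, BASP1, TUBB2B, TUBA1A and PRPH, or 14.7% of the tested members against 8.71% of all tested genes with a transcript. The highest density was in STMN1, with 2.77 per kilobase from 4 matches, and the largest number in MAP1A, with 17. Of the 6 members with 4 or more matches in the 3′ UTR, MAPT (8) and ELAVL3 (4) rose, DCX (6) and KIF5A (6) fell, and KIF5C (5) and DCLK1 (4) were not called. No relation of density to fold change was tested.

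Promoters in the RefSeq table (GRCh38.p14) could be matched for 25 members. The 250 bases upstream of the RefSeq start are shown for GAP43 and DCX, the genes that moved furthest in each direction, and for STMN1 and STMN3, as members of the family that fell together; capitals mark CACGTG, the E-box bound by MYC family proteins, the wider E-box CANNTG, and the GC box GGGCGG or its complement, each searched on both strands.
GAP43: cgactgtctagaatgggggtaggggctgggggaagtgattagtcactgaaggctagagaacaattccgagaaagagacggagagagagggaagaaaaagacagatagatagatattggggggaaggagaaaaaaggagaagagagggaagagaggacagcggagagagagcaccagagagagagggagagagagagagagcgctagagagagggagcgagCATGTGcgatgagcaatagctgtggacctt
DCX: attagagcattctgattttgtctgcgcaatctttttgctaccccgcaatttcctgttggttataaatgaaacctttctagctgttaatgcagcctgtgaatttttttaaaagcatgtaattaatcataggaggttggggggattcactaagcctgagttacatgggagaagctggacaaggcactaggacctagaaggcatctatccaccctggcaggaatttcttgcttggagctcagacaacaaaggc
STMN1: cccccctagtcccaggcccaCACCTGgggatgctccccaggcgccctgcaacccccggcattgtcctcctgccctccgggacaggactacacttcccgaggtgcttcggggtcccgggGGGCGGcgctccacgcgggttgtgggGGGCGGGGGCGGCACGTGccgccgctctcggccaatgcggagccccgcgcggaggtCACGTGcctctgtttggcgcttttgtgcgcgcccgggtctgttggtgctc
STMN3: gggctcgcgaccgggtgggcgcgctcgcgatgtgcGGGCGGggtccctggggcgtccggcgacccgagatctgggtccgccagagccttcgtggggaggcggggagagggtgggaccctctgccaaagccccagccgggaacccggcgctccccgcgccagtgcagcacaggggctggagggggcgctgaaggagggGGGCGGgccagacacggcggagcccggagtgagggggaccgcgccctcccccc
They lie at chr3:115623260-115623509 (plus strand, GAP43), chrX:111412193-111412442 (minus, DCX), chr1:25906420-25906669 (minus, STMN1) and chr20:63652767-63653016 (minus, STMN3). These RefSeq starts lie inside the gene spans used for counting, which begin further upstream, so each window lies wholly or mostly within its gene's counted span. STMN1 was the only one of the 25 with CACGTG in this window (2 matches), which is found in 6.49% of 27305 promoters. CANNTG, which includes every CACGTG, was found in 11 of the 25 and in 62.2% of all promoters, and GGGCGG in 14 of the 25 and in 42.3%. DCX held none of the 3 motifs in this window, and the stathmin pair did not share an E-box.

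Other cytoskeleton genes, from lists of the wider pathway, were counted beside the members. Of 14 tested tubulins outside the members, 3 were higher and 3 lower (21.4% each), near the 18.6% and 19.2% of all tested genes. The abundant TUBB went from 1298 ± 59.6 to 1031 ± 9.53 CPM (edgeR FDR 0.000472, log2 fold change -0.33) and TUBA1B from 1241 ± 36.1 to 1054 ± 33.6 CPM (edgeR FDR 0.00483, log2 fold change -0.24). The TUBA1B call was lost with the intron offset (FDR 0.0669). Of 44 tested microtubule regulators (plus-end binding, severing, tubulin folding and tubulin modification), 16 were higher (36.4%) and 4 were lower (9.09%), a split unlike that of the members, although the difference was not tested. Intron length, which went with the direction of change over all genes, was not matched between these lists. NAV1 and NAV2, neuron navigators that bind microtubule plus ends, rose by 0.96 and 0.93 on the log2 scale (edgeR FDR 3.40e-07 and 3.33e-07), and NDE1, a dynein regulator whose span overlaps MYH11, by 0.61. Of 29 transport motor genes, 8 were higher (27.6%) and 6 lower (20.7%), with KIF21A, a kinesin that limits microtubule growth, falling from 449 ± 51.1 to 281 ± 4.21 CPM (edgeR FDR 1.09e-05, log2 fold change -0.68). ELAVL1, the ubiquitous relative of ELAVL3, rose by 0.25 (edgeR FDR 0.00906), and ELAVL2 was not (edgeR FDR 0.183).

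**Figure D5:**
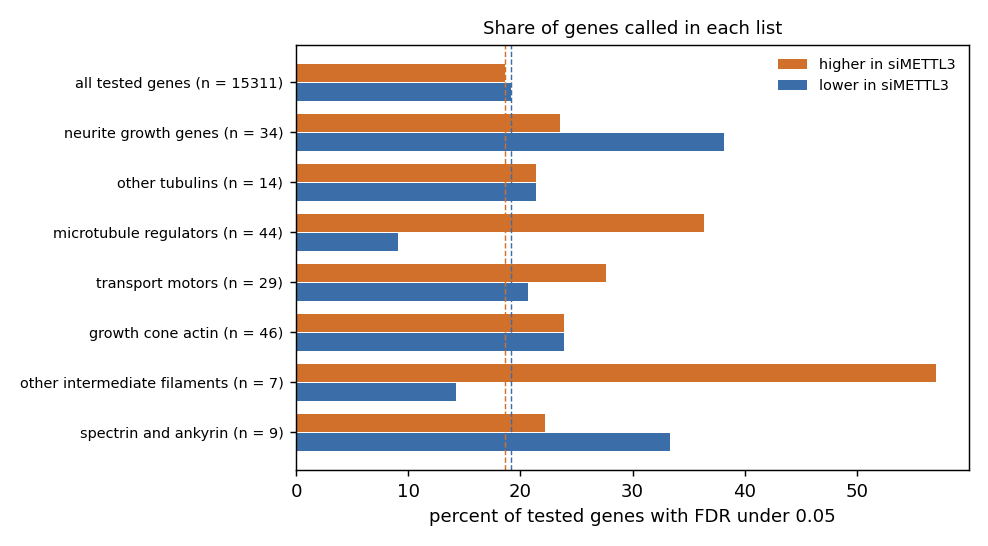
Percent of tested genes called higher (orange) or lower (blue) in siMETTL3 at an FDR under 0.05, for the neurite growth genes and 6 lists of other cytoskeleton genes, with dashed lines at the values of all tested genes (18.6% and 19.2%). The neurite growth genes show 23.5% and 38.2%, and the microtubule regulators 36.4% and 9.09%. The lists were not matched for intron length.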

How the data were processed

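Each library had 1 deposited table of raw counts, which the authors made with featureCounts 1.5.3 on GENCODE release 33, protein-only by its name, per the file headers. Reads were counted over each whole gene span with its introns, overlapping genes each received a shared read, and no strand option was set, per the same headers. HISAT2 2.1.0, Trimmomatic 0.36 and GRCh38 are named in the submitters' processing notes. The header paths name each library as an input within an m6A project, which may mean RNA set aside before an immunoprecipitation, and also name Picard; what that step did is not given in the sources used here, and any removal of duplicate reads would lower high counts most.

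Genes passing filterByExpr (15311) were scaled by TMM and tested with edgeR 4.0.16 in R 4.3.3 (quasi-likelihood F-test, robust, all 6 libraries, no covariate), with Benjamini-Hochberg adjustment over all of them and a threshold of 0.05. The SE is the absolute log2 fold change over the square root of F. The fit was run on simulated data, where it recovered most changed genes and the share of false calls lay somewhat above the nominal level. The simulation changed far fewer genes than were called here, each by about 1.5-fold or more. It therefore does not give the recovery or the false share for smaller changes, which most called members had. The 35 members and the gene lists were chosen with earlier results of these data known. The named genes are all members, METTL3, and from each other cytoskeleton list up to 3 called genes with the smallest FDR and an average log2 CPM of at least 3. The genes that this rule gives but the text above leaves out are TUBE1, KLC4 and DCTN1. All were called lower (log2 fold changes -0.62, -0.33 and -0.25). Alternatives were RLE, upper quartile and total count scaling, a minimum of 10 counts in each library or no filter, limma-voom (limma 3.58.1), DESeq2 1.42.0, no robust option, a replicate block, each library left out, offsets for intron length or for GC content and transcript length (mgcv 1.9.3), and genes without overlapping spans. Transcripts came from GENCODE release 44 (GRCh38), found for all tested members and 95.3% of tested genes; 18998 of 18999 comparable spans lay on the gene of the same symbol, and all 29 printed or listed sequences that were checked matched the genome. Spans of 33.1% of genes overlap another gene. Libraries of 1 group differed by more than sampling noise (chi-square per degree of freedom 3.10 to 16.6).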

Additional observations from a re-analysis of the deposited data

How the results depend on the processing

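METTL3 kept its direction and call in all 19 alternatives (log2 fold change -0.74 to -0.69 with a library left out). It shares 7.9% of its span with TOX4 and was kept by name in the fit on genes without overlaps. On genes without overlaps, 9518 genes and 27 members were tested, fewer than in the main fit. In that setting 1852 genes were higher and 1898 lower (19.5% and 19.9%). Among the members 4 were higher and 12 lower (14.8% and 44.4%). Leaving out each library gave 2091 to 3178 higher and 2119 to 3216 lower genes, 6 to 8 higher and 9 to 14 lower members, and 33 to 53 higher and 21 to 33 lower genes of the other cytoskeleton lists. The members' median log2 fold change (-0.069, with a spread between libraries of 0.0223) was -0.046 with total count scaling, -0.018 with the intron length offset, -0.16 with the offset for GC and length (-0.161 with the block added), -0.098 on genes without overlaps, and -0.13 to -0.060 with a library left out (-0.109 without siControl replicate 1 and -0.132 without siMETTL3 replicate 2); the cause was not tested.

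Sign changes were seen only in members that were not called. DCLK1 (-0.00064) was at 0.00057 with RLE, 0.012 with upper quartile, 0.023 with total count scaling, 0.0053 with at least 10 counts, 0.00072 in DESeq2, 0.0017 in limma-voom, 0.013 and 0.012 with the GC and length offset without and with the block, and between -0.020 and 0.035 with a library left out. DPYSL2 was at -0.00060 with the intron offset and at -0.0040 and -0.0034 with the GC and length offset without and with the block. NEFL was at 0.0059 (upper quartile), 0.017 (total count), 0.0023 (limma-voom), 0.087 (intron offset) and -0.071 to 0.073 (a library left out). With the intron offset TUBB2A was at 0.069, NEFM at 0.013, INA at 0.0026 and NES at 0.029. With a library left out, TUBB2A ranged from -0.115 to 0.017, NEFM from -0.164 to 0.024, INA from -0.124 to 0.020 and MARCKS from -0.028 to 0.075. The cause was not tested. With a library left out, 23 of 204 member values lost a call and 5 gained one; under the other alternatives these were 21 and 17 of 435.

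The GC and length offset called 6 members higher and 17 lower (17.6% and 50.0%, against 21.2% and 20.6% of all tested genes), adding NES (-0.23, FDR 0.00227), ELAVL4 (0.27, FDR 0.000392), DPYSL4, PRPH and KIF5C. Deviations from the group means correlated at 0.040, 0.049 and 0.067 for the same replicate number and -0.064 to 0.026 otherwise. Each library thus correlated best with its own number, but every value was small. Whether the numbers pair the libraries was not settled by these values. With the replicate block, 3047 genes were higher and 3119 lower, and 8 members higher and 16 lower, adding DPYSL4, PRPH and KIF5C (FDR 0.0406, 0.0438 and 0.0447). Pseudocount alternatives had been planned only for normalised values and were not run.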

Other observations

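Of 46 tested actin and growth cone signalling genes, 11 were higher and 11 were lower in siMETTL3 (23.9% each, near the 18.6% and 19.2% of all tested genes). RND3 had the largest fall of the list, from 78.9 ± 5.20 to 38.2 ± 3.82 CPM (SD, n = 3, edgeR FDR 5.56e-07, log2 fold change -1.045). DBN1, which encodes the actin-binding protein drebrin, fell from 293 ± 6.36 to 215.5 ± 10.6 CPM (edgeR FDR 4.59e-05, log2 fold change -0.44). VASP, which promotes actin filament elongation, rose from 22.3 ± 1.15 to 40.1 ± 3.62 CPM (edgeR FDR 8.84e-06, log2 fold change 0.84). RND3, DBN1 and VASP were called in each of the 19 alternatives.

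Among the 7 tested intermediate filament genes outside the neuronal ones, 4 were higher and 1 was lower (57.1% and 14.3%). VIM, the vimentin gene, rose from 27.3 ± 0.804 to 48.8 ± 3.08 CPM (edgeR FDR 2.69e-06, log2 fold change 0.84) and LMNA from 66.1 ± 11.5 to 90.0 ± 4.67 CPM (edgeR FDR 0.00613, log2 fold change 0.44), while the lamin gene LMNB2 fell by 0.30 on the log2 scale. In the membrane skeleton list of 9 tested genes of spectrin, ankyrin and their partners, 2 were higher and 3 lower (22.2% and 33.3%). ANK1 rose by 0.59 (edgeR FDR 3.22e-05) and ADD1 by 0.30, and EPB41L3 fell by 0.26 (edgeR FDR 0.00300).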
